A study of Mus musculus with 11 samples.

Results

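The 4 genes Cdh1, Cdh2, Cdh3 and Epcam encode adhesion proteins of the cell surface, and 5-hydroxymethylcytosine (5hmC) was profiled over each of them in 11 libraries. A gene's tiles were all 2 kb tiles of the genome that overlapped its annotated span on GRCm38 or the 2 kb to either side. This gave 187 tiles of 1362779 in the table, of which 37 belonged to Cdh1, 113 to Cdh2, 26 to Cdh3 and 11 to Epcam. No measured value was used to choose them.

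The libraries were made from mouse embryonic stem (ES) cells and from the epiblast-like cells (EpiLC) into which they were differentiated, with a kit that captures DNA fragments carrying 5hmC. The cells came from a pair of wild-type lines. TET_WT is the parent of a line without Tet1, Tet2 and Tet3, and DNMT_WT is the parent of a line without Dnmt1, Dnmt3a and Dnmt3b. None of the 11 libraries carried a knockout. TET_WT was measured as ES cells in 2i/Lif medium (day 0, 3 libraries) and as EpiLC at day 1 (2 libraries, replicates 2 and 3) and day 2 (3 libraries), and DNMT_WT as EpiLC at day 2 (3 libraries). DNMT_WT had no day 0 library here, so a difference between the lines at day 2 cannot be told apart from one already present at day 0. The labels do not state that replicates were separate cultures, so p-values measure the spread between these libraries, which may be technical. Each line is a single parental line, and 5hmC at marker genes cannot check the identity of cells as RNA would.

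5hmC is made from 5-methylcytosine by the TET enzymes. It is an intermediate of active demethylation and is often found in the bodies of transcribed genes and at enhancers. E-cadherin (Cdh1), P-cadherin (Cdh3) and N-cadherin (Cdh2) are classical cadherins, calcium-dependent proteins that join neighbouring cells and bind catenins inside the cell. Replacement of E-cadherin by N-cadherin is the cadherin switch that accompanies epithelial to mesenchymal transition, as in gastrulation, when cells leave the epiblast. Epcam is an unrelated epithelial adhesion protein that ES cells and the epiblast also carry. Cdh1 and Cdh3 lie side by side on chromosome 8 and are transcribed toward higher coordinates, whereas Cdh2 on chromosome 18 is transcribed toward lower coordinates.

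Values are log2 RPKM (log2 of the read density of a tile as a share of the library), and a gene value is the mean over the gene's tested tiles. The scale is relative to each library's total, so a change in the total 5hmC of the cells is not visible. Recovered library totals ran from 7342012 reads (day 1 replicate 2) to 51604024 (day 0 replicate 1), and 10.3% to 31.8% of tiles had no read. Day 0 replicate 2 stood apart from the other day 0 libraries, with a median of −1.88 over tested tiles against −1.30 and −1.24. Where leaving it out gave or ended the call of a gene, both results are given. Some of the tile counts and tile calls that it changes are given as well. A gene or tile is called where the adjusted p of limma, with Benjamini-Hochberg adjustment over all genes or all tested tiles, was under 0.05.

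**Figure D1:**
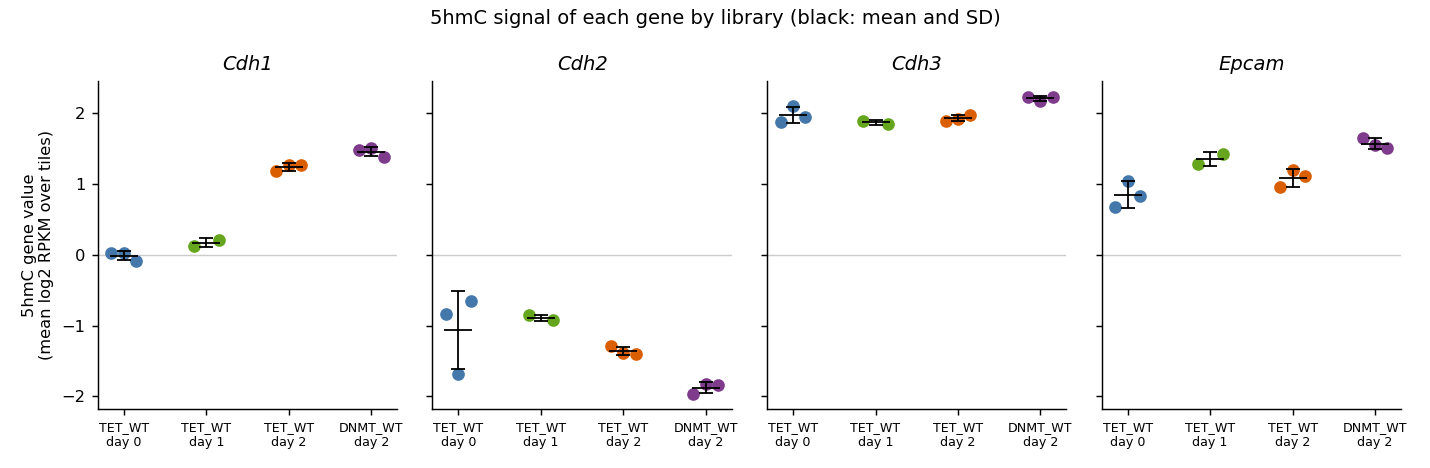
The 5hmC gene value (mean log2 RPKM over tested tiles, vertical axis) is plotted for each library by group, with 1 panel a gene; points are libraries, and black marks give the mean and SD. Cdh1 stands near 0 at day 0 and day 1 and above 1.1 in each day 2 library, and 1 day 0 library of Cdh2 (replicate 2) lies at −1.69, below the others of its group.

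Cdh1 (chr8:106603350-106670247) gained 5hmC between day 0 and day 2 of EpiLC differentiation. Its gene values were 0.02, 0.03 and −0.09 in day 0 replicates 1, 2 and 3. They were 0.12 and 0.21 at day 1, and 1.18, 1.27 and 1.26 at day 2. Every day 2 library was above every day 0 and day 1 library; between day 0 and day 2, groups did not overlap in 31.6% of all genes. Day 2 exceeded day 0 by 1.25 (SE 0.09) on the log2 scale, which is 2.38-fold, with an adjusted p of 4.06e-06 by limma. Of all genes 15.3% were called higher in this comparison and 2.51% lower, together 17.8%, and 243 of 20717 genes had a larger difference. Cdh1 moved from between the 55.5th and 60.3rd percentile of all gene values at day 0 to between the 88.6th and 89.8th at day 2.

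The day 1 libraries lay near those of day 0. Their mean exceeded day 0 by 0.18 (SE 0.10, adjusted p 0.480 by limma), a comparison in which no gene was called (0%) and 2551 of 20717 had an unadjusted p under 0.05. Day 2 exceeded day 1 by 1.07 (SE 0.10), with an adjusted p of 0.000105 by limma. With the reads of the gene's tiles summed it was 0.25 and not called (adjusted p 0.0626 by limma voom). In that comparison 9.59% of genes were called, 8.99% higher, and 50.3% had groups that did not overlap. Of the 36 tested tiles of Cdh1, 17 were called higher at day 2 than at day 1, against 2.41% of all tested tiles (2.96% in either direction). At equal depth 4 of them were called. Without the variance trend, the dependence of a tile's spread on its level that limma fits, none of the 36 was called, and 16 tiles in the whole genome were, against 35049 with it. The day 1 group holds only 2 libraries, 1 of them the shallowest.

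The gain was not spread evenly over Cdh1. Of its 36 tested tiles, 19 were called higher at day 2 than at day 0, against 5.33% of all tested tiles, and 1 was called lower, against 2.68% (8.01% in either direction). All 19 lay within 22 neighbouring tiles, chr8:106604001-106648000, in the part of the gene nearer its start of transcription. Their differences ran from 1.21 to 4.55. The other 3 tiles of the stretch were also positive (0.64, 1.37 and 0.79) and not called. The tile over the annotated start, chr8:106602001-106604000, was not called, with reads of 32, 17 and 58 at day 0 and 20, 21 and 30 at day 2, and a difference of 0.32 (SE 0.38, adjusted p 0.770 by limma).

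Within the 44 kb stretch the mean of the tiles was −1.24 ± 0.20 (SD, n = 3) at day 0 (−1.31 ± 0.21 over the 2 libraries other than replicate 2), −0.97 ± 0.02 (SD, n = 2) at day 1 and 0.91 ± 0.09 (SD, n = 3) at day 2. In the 13 tiles beyond it, toward the end of the gene, the corresponding means were 2.22 ± 0.13, 2.32 ± 0.13 and 2.08 ± 0.04. These tiles were higher than the stretch in each group and changed little. The limits of the stretch were drawn from the same values, so it carries no test. The reads of the stretch summed to 598, 321 and 445 for day 0 replicates 1, 2 and 3, against 1126, 895 and 1152 for day 2. Day 0 replicate 2 and day 2 replicate 1 are of similar depth, 29831987 and 28084687 reads, and they held 321 and 1126. As a share of all reads on the 37 tiles, which does not depend on the library total, the stretch held 11.8% ± 1.57 (SD, n = 3) at day 0, 14.3% ± 1.06 (SD, n = 2) at day 1 and 38.5% ± 1.0 (SD, n = 3) at day 2.

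**Figure D2:**
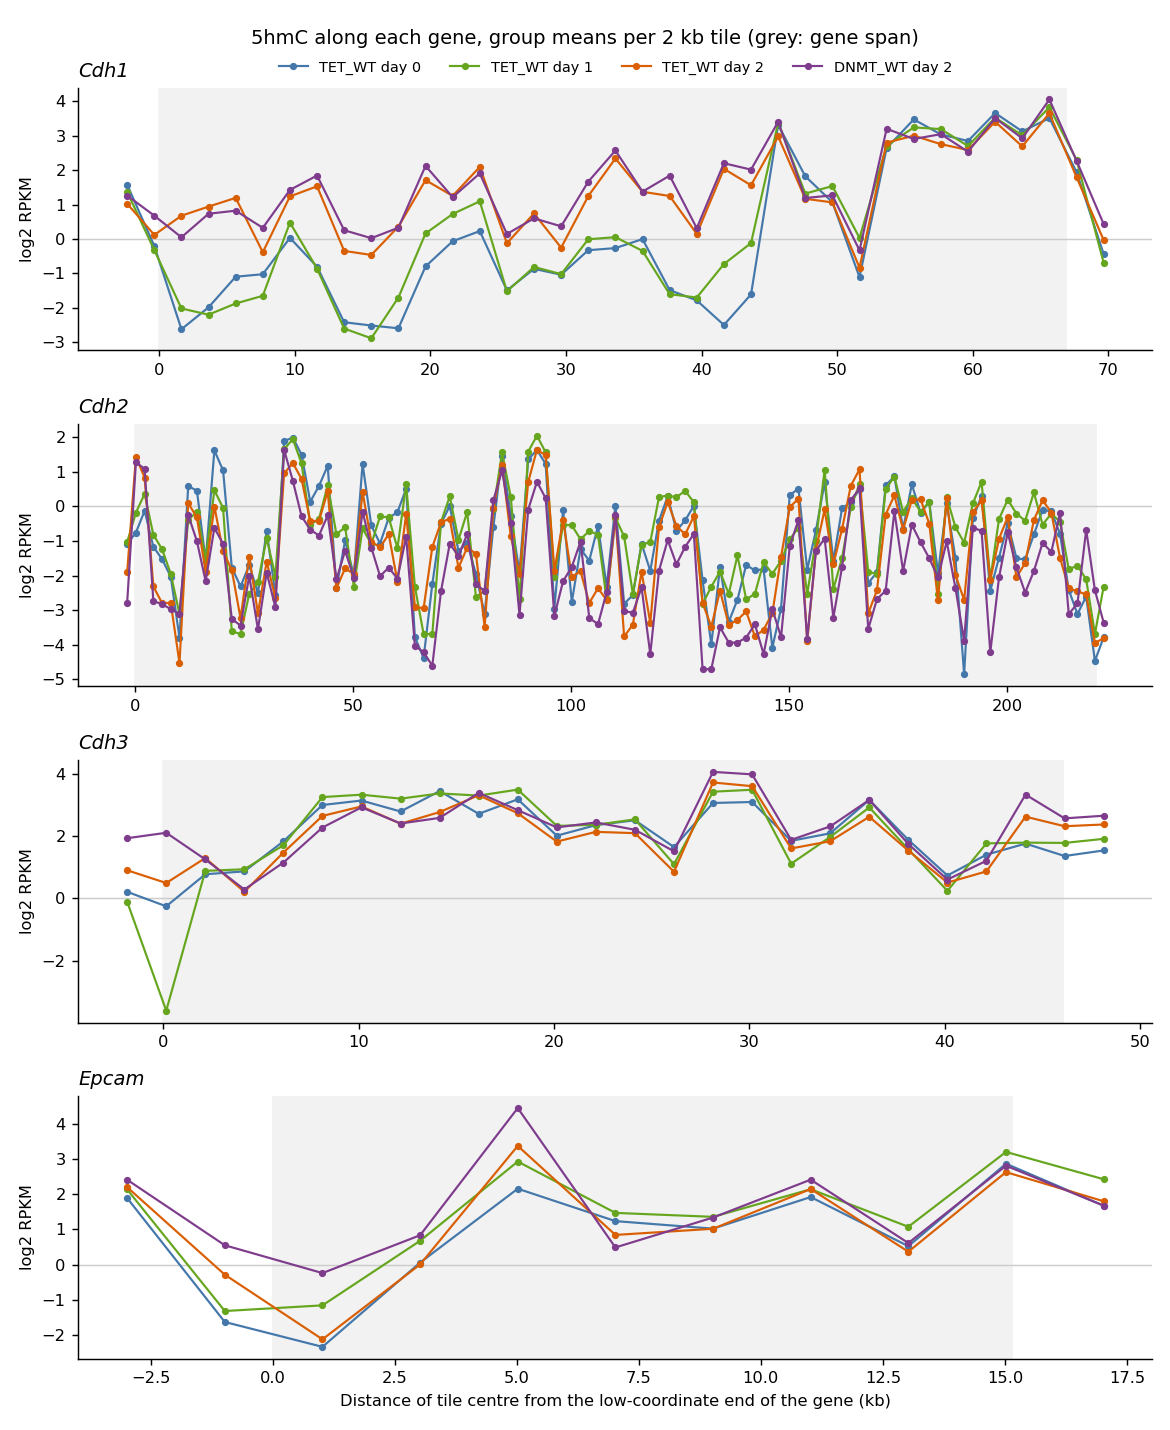
Group mean log2 RPKM (vertical axis) of each 2 kb tile is plotted against its distance in kb from the low-coordinate end of the gene, with 1 panel a gene and grey marking the gene span. In Cdh1 the day 2 lines of both wild-type lines run above the day 0 and day 1 lines up to about 44 kb and meet them beyond it. In Cdh3 the 4 lines mostly stay close, but part at both ends and at the highest tile, near 28 kb.

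The largest difference lay at chr8:106644001-106646000. This tile held 11, 4 and 6 reads at day 0, 3 and 18 at day 1, and 90, 78 and 98 at day 2. Its log2 difference was 4.55 (SE 0.35, adjusted p 5.18e-24 by limma), the groups did not overlap, and it also exceeded day 0 at day 1, by 1.77 (SE 0.39, adjusted p 0.00488). Its neighbour at chr8:106646001-106648000 held 8, 10 and 21 reads at day 0 and 57, 71 and 63 at day 2, a difference of 3.18 (SE 0.33, adjusted p 8.25e-15 by limma). At day 1 it had 6 and 21 reads and differed from day 0 by 1.5 (SE 0.37, adjusted p 0.0187 by limma). These were the 2 tiles of Cdh1 called between day 0 and day 1, where 1.01% of all tested tiles were called. The call of the first was lost without day 1 replicate 3 (adjusted p 0.0696), and that of the second without day 0 replicate 1 (0.148) or day 1 replicate 2 (0.146) and after centring (0.073). Both were lost at equal depth (0.309 and 0.142) and without the variance trend (0.219 and 0.354), where no tile of the genome was called between day 0 and day 1.

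At the low end, the tile chr8:106604001-106606000, next to the one over the start, rose from 2, 6 and 17 reads at day 0 to 34, 32 and 37 at day 2, a difference of 3.31 (SE 0.57, adjusted p 2.21e-06 by limma, and 0.0735 without the variance trend). The called tile that fell, chr8:106658001-106660000, lies among the strongest of the gene. It held 447, 359 and 420 reads at day 0 and 185, 145 and 191 at day 2, and its difference of −0.47 (SE 0.14, adjusted p 0.0195 by limma) was not called without day 0 replicate 2 (adjusted p 0.195). The tile with the highest mean of the gene, chr8:106668001-106670000, was among the 0.1% of tiles with the highest signal and entered no main fit. Its level was 3.51 ± 0.23 (SD, n = 3) at day 0 and 3.66 ± 0.11 (SD, n = 3) at day 2.

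Divided by coordinate into 5 equal parts, Cdh1 changed from a steep to a flatter profile. Part 1, nearest the start, went from −1.26 ± 0.34 to 0.86 ± 0.08 (SD, n = 3 each), a difference of 2.12. Parts 2, 3 and 4 differed by 2.02, 1.81 and 1.17. Part 5 stood at 3.19 ± 0.11 at day 0 and 2.99 ± 0.01 at day 2, a difference of −0.20. Part 1 minus part 5 went from −4.45 ± 0.25 to −2.12 ± 0.08, and the groups did not overlap (exact permutation test, two-sided, p = 0.1, the smallest that 3 against 3 libraries allow). At day 1, part 4 had reached 0.90 ± 0.14 (SD, n = 2) from 0.16 ± 0.37 at day 0 (SD, n = 3), while parts 1 to 3 remained below 0. The tiles with a group mean under 0 numbered 23 of 37 at day 0, 19 at day 1 and 7 at day 2.

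**Figure D3:**
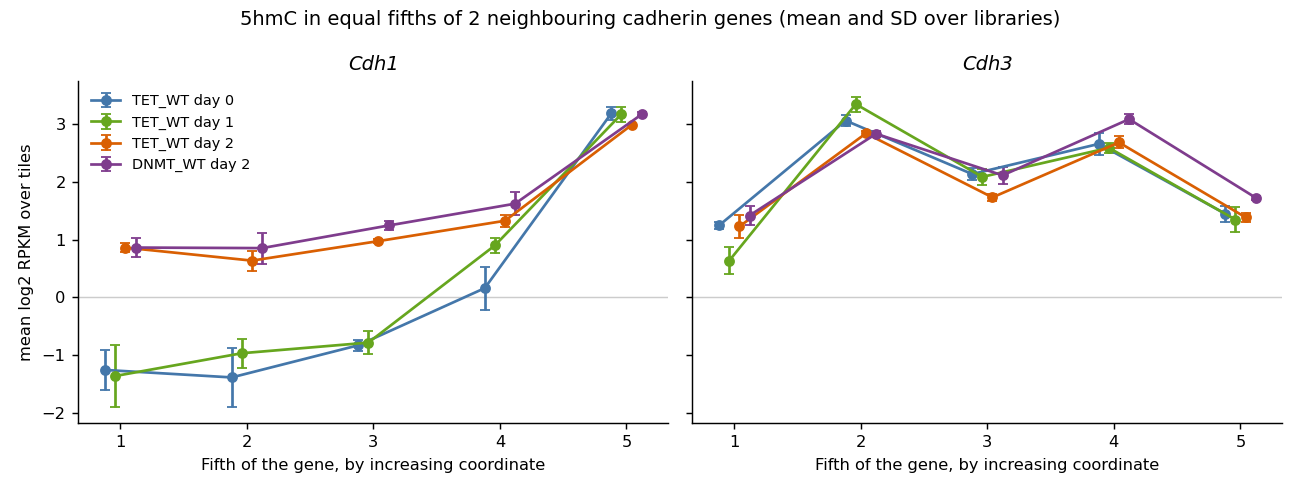
Mean log2 RPKM over tiles (vertical axis) is plotted for 5 equal parts of Cdh1 and Cdh3 in order of increasing coordinate; points are group means and bars the SD over libraries. Parts 1 to 4 of Cdh1 lie higher in the day 2 groups than at day 0 while part 5 stays near 3, and no such step is seen in the neighbouring Cdh3.

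The size of the Cdh1 gain depended on how tiles were weighted. With the reads of all its tiles summed, so that the strong end of the gene dominates, the day 2 minus day 0 difference was 0.27 (adjusted p 0.0017 by limma voom). The voom fit called 4219 of 20717 genes higher. With 20 kb to either side the difference was 0.78. The count of tiles called higher was 9 without the variance trend and 11 with all libraries thinned to the depth of the shallowest.

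Cdh1 did not differ between the wild-type lines at day 2 beyond the threshold. DNMT_WT libraries stood at 1.47, 1.51 and 1.39, above each TET_WT library, and the difference of 0.22 (SE 0.09) had an adjusted p of 0.106 by limma where 19% of genes were called and 48.3% had groups that did not overlap. Without day 0 replicate 2, which enters only through the shared spread, the adjusted p was 0.0404, in a fit that called 6215 of 20717 genes, 4539 of them higher. With all libraries, none of the 36 tested tiles of Cdh1 was called by limma, against 3.24% of all tested tiles. An unadjusted p under 0.05 was found in 3 of the 36, and in 155429 of all 1183891 tested tiles. Without day 0 replicate 2, 1 tile of Cdh1 was called higher. The 44 kb stretch stood at 1.10 ± 0.12 (SD, n = 3) in DNMT_WT and held 37.4% ± 2.18 of the gene's reads.

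Cdh3 (chr8:106510852-106556911), the neighbour of Cdh1 and likewise an epithelial cadherin, had the highest gene value of the 4 genes in each library, and its level was steady. Its values were 1.88, 2.10 and 1.94 at day 0, 1.90 and 1.85 at day 1, and 1.89, 1.92 and 1.97 at day 2. The groups overlapped, and day 2 minus day 0 was −0.04 (SE 0.08, adjusted p 0.80 by limma), or 0.02 without day 0 replicate 2. These values placed Cdh3 above 98.2% of genes in each library and at rank 1 or 2 of 22 cadherin genes in each group. Beside it, Cdh1 went from rank 9 at day 0 to rank 4 at day 2.

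Small differences in both directions lay beneath the steady level of Cdh3. Of 25 tested tiles, 5 were called higher at day 2 than day 0 and 4 lower (5.33% and 2.68% of all tested tiles). Those that rose were not confined to the end of the gene, and the first by coordinate, from 106526001, lay in the body. The 3 neighbouring tiles at the end of the gene were among them. The largest of them, chr8:106556001-106558000, held 109, 75 and 102 reads at day 0 and 134, 71 and 131 at day 2, with a difference of 0.96 (SE 0.20, adjusted p 0.00016 by limma). The tiles to either side, from 106554001 and from 106558001, rose by 0.87 and 0.84. In the body, chr8:106524001-106526000 fell from 444, 291 and 498 reads to 179, 109 and 165, a difference of −0.68 (SE 0.15, adjusted p 0.000391 by limma). The tiles from 106536001 and 106546001 fell by 0.80 and 0.54. Without the variance trend none of these 9 tiles was called, although 15 of the 25 tested tiles had an unadjusted p under 0.05 in the fit with it. Of all 1183891 tested tiles, 204914 had such a p in that fit. With any of day 0 replicate 2 and day 2 replicates 1 and 2 left out, 1 was called lower instead of 4. The tile with the highest mean of Cdh3, chr8:106538001-106540000 in the body, had too high a signal to enter the main fits or the gene value. Its level was 3.07 ± 0.29 at day 0, 3.73 ± 0.07 at day 2 and 4.07 ± 0.07 in DNMT_WT (SD, n = 3 each). With no tile filter its day 2 minus day 0 difference was 0.66 (adjusted p 3.25e-05 by limma), where 63609 of 1316897 tiles were called higher. Between the lines it was 0.34 and not called (adjusted p 0.167).

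The tile over the low end of Cdh3, which holds the start of transcription, had almost no reads at day 1. Tile chr8:106510001-106512000 held 31, 29 and 32 reads at day 0, 1 and 1 at day 1, 31, 25 and 36 at day 2, and 128, 67 and 122 in DNMT_WT. Day 1 was the low group and DNMT_WT the high one, with no overlap between either and the rest. The pooled read rate at day 1 was 0.0817 of that at day 0, with a 95% exact interval of 0.00975 to 0.304 that covers counting error only, and day 1 minus day 0 was −3.36 (SE 0.45, adjusted p 9.16e-08 by limma), where 0.409% of all tested tiles were called lower. That call was lost without the variance trend (adjusted p 0.196).

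Between the lines at day 2, Cdh3 was higher in DNMT_WT, at 2.23, 2.17 and 2.23, by 0.28 (SE 0.08, adjusted p 0.0262 by limma). The groups did not overlap. Of all genes 14.9% were called higher in DNMT_WT, and 48.3% had groups that did not overlap. Leaving out any of the 6 day 2 libraries took the adjusted p of Cdh3 to between 0.0568 and 0.109, so the call rests on all of them. Of 25 tested tiles 4 were called higher in DNMT_WT, where 1% of all tested tiles were, and 5 without day 0 replicate 2. The largest difference was that of the start tile above, 1.62 (SE 0.40, adjusted p 0.00604 by limma). Its call was lost without day 2 replicate 1 or DNMT_WT replicate 2 or 3. The tiles from 106546001 and 106554001 were higher by 0.54 and 0.71. None of the 4 was called at equal depth or without the variance trend, where the adjusted p ran from 0.235 to 0.518. Both centring on library medians and leaving out the variance trend ended the gene's call (adjusted p 0.181 and 0.0738).

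The region between the neighbours and the region beyond Cdh1 were read in the same fit, and no test set them against Cdh1. Over the 20 tested tiles of chr8:106560001-106600000, between the tiles of Cdh3 and those of Cdh1, 4 were called higher and 1 lower at day 2 minus day 0, with a median difference of 0.10. Of all tested tiles 5.33% were called higher and 2.68% lower. The mean level between the genes was 0.69 ± 0.12 at day 0 and 0.83 ± 0.11 at day 2 (SD, n = 3 each). In the 20 kb beyond Cdh1, 1 of 10 tiles was called higher and 1 lower, with a median of −0.13.

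Cdh2 (chr18:16588877-16809246), the mesenchymal and neural cadherin, had the lowest 5hmC of the 4 genes in each library. Gene values at day 0 were −0.83, −1.69 and −0.66, at day 1 −0.86 and −0.92, and at day 2 −1.29, −1.38 and −1.41. Day 0 replicate 2 was low and the other day 0 libraries were above all day 2 libraries. With all libraries, day 2 minus day 0 was −0.30 (SE 0.25, adjusted p 0.497 by limma). Without day 0 replicate 2 it was −0.61 with an adjusted p of 0.00574, in a fit that called 31.6% of genes. Leaving out that library thus changed both the size and the call. With reads summed per gene and all libraries kept, the difference was −0.43 and was called (adjusted p 0.00748 by limma voom). The voom fit called 6588 of 20717 genes, 2369 of them lower. For day 2 minus day 1, −0.47 (SE 0.28), day 0 replicate 2 enters only through the shared spread. At the same size, the adjusted p by limma was 0.339 with it and 0.0335 without it, in fits that called 1986 and 3568 of 20717 genes. Day 1 minus day 0 was 0.17 with it and −0.14 without it, and was called in neither fit.

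Few tiles of Cdh2 passed the test, and most were in the part nearer its low end, where transcription ends. Of 113 tested tiles 5 were called lower at day 2 than day 0 and 1 higher, against 2.68% and 5.33% of all tested tiles. Negative differences numbered 80 and positive ones 33, and the median was −0.37, against −0.05 over all tested tiles. The largest fall, at chr18:16608001-16610000, was from 122, 72 and 48 reads to 6, 8 and 14, with a difference of −2.33 (SE 0.46, adjusted p 5.71e-05 by limma) and no overlap. The adjacent tile from 16606001 went from 152, 86 and 108 reads to 18, 26 and 21, a fall by 1.62 (SE 0.36, adjusted p 0.000432). The tile from 16622001 fell by 0.94, and that from 16648001 by 2.01. The call of the last was lost without day 0 replicate 1 or 3 or day 2 replicate 2. All 5 calls were lost without the variance trend and at equal depth.

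The tile of Cdh2 that rose holds its low end. At chr18:16588001-16590000 reads were 35, 12 and 24 at day 0, 4 and 29 at day 1, and 77, 56 and 45 at day 2. Day 2 exceeded day 0 by 2.19 (SE 0.33, adjusted p 7.48e-08 by limma) and day 1 by 1.61 (SE 0.37, adjusted p 0.00235), and the day 2 group did not overlap either. The second of these calls was lost at equal depth and without the variance trend. The tile over the other end, where transcription starts, was low in each group, at −4.47 ± 1.83 (SD, n = 3) at day 0 and −3.95 ± 0.86 (SD, n = 3) at day 2.

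Cdh2 was lower in DNMT_WT than in TET_WT at day 2 in each library, at −1.96, −1.82 and −1.85. The groups did not overlap, as in 48.3% of all genes. The difference was −0.52 (SE 0.25, adjusted p 0.171 by limma) where 4.07% of genes were called lower. Without day 0 replicate 2 the adjusted p by limma was 0.0082 at the same size, in a fit that called 6215 of 20717 genes, 1676 of them lower. Differences were negative in 86 of 113 tiles, with a median of −0.51 against −0.12 over all tested tiles. Of the 113, 6 were called lower, against 2.24% of all tested tiles, and 8 without day 0 replicate 2. The largest was −3.43, in the tile from 16656001, which lost its call without any of 5 of the 6 day 2 libraries. The tiles from 16682001 and 16760001 were lower by 1.24 and 2.20. None of these calls held without the variance trend or at equal depth.

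**Figure D4:**
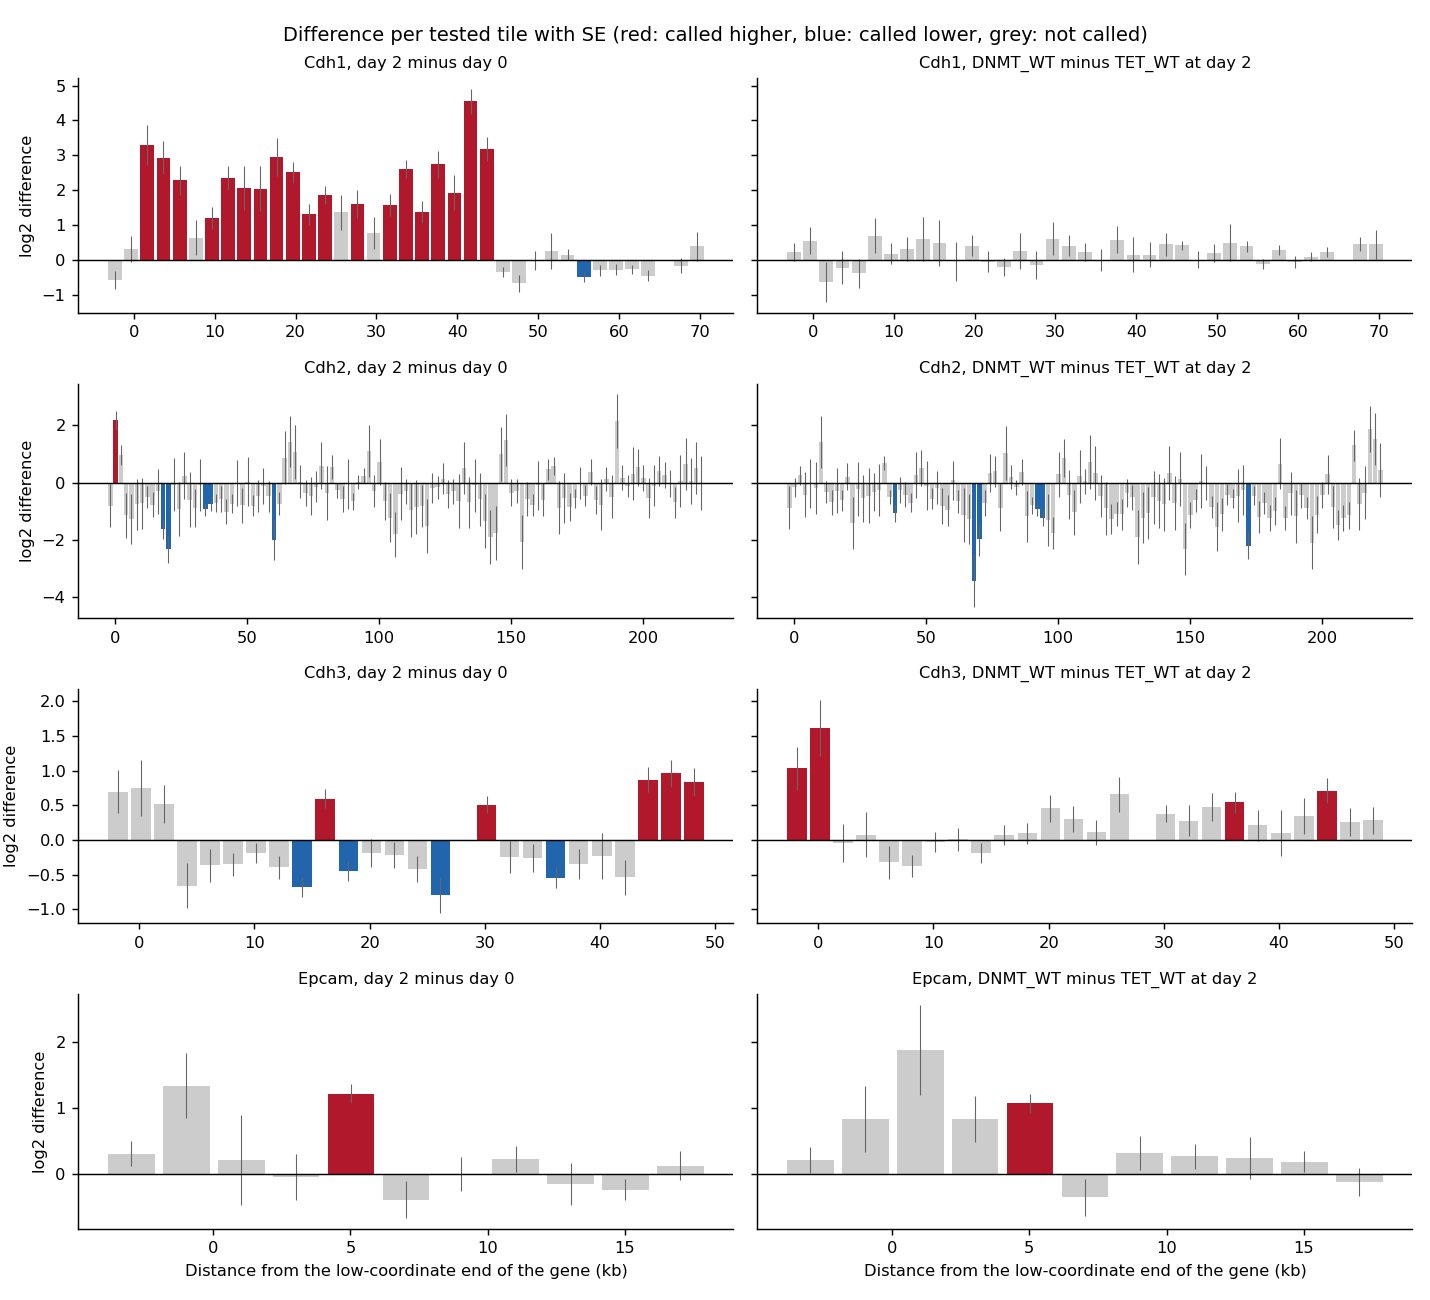
The log2 difference of each tested tile with its SE (vertical axis) is plotted against the distance in kb from the low-coordinate end of the gene, for day 2 minus day 0 (left) and DNMT_WT minus TET_WT at day 2 (right); red bars were called higher, blue bars lower and grey bars not called. The 19 red bars of Cdh1 run together over 44 kb on the left and none of its bars is coloured on the right, whereas Cdh3 has 9 coloured bars of both signs on the left, 3 of them adjacent at its end.

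Epcam (chr17:87635979-87651127) had 1 tile inside the gene that was called both between day 0 and day 2 and between the lines. Its promoter is the only one shown, because the promoter sequences at hand held Epcam and not Cdh1 or Cdh3. The tile over it, described after it, carried few reads and a difference short of the threshold. The sequence is RefSeq's on GRCm38.p6, chr17:87635729-87635978, plus strand, the 250 bases before the start of the gene, with each CG, the site of methylation and hydroxymethylation, in capitals:
Epcam promoter: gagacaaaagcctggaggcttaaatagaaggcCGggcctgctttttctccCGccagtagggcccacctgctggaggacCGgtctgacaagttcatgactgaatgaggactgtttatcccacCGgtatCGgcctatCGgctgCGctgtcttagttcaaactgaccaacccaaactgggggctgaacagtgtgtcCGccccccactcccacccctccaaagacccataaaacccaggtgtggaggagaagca
It holds 8 CG, and 43.0% of 32851 RefSeq promoter windows of the same length hold at least as many. Searched on both strands for CACCTG, the E-box read by the Snail and Zeb repressors, which reads CAGGTG on the other strand, the window had 2 matches, at 187 and 19 bases before the start. At least 1 match was found in 17.2% of the windows and at least 2 in 2.06%. A match is a string of letters and not a shown site.

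The tile over this promoter, chr17:87634001-87636000, held 18, 13 and 7 reads at day 0, 2 and 12 at day 1, 16, 17 and 20 at day 2, and 55, 27 and 27 in DNMT_WT. Day 2 minus day 0 was 1.34 (SE 0.50, adjusted p 0.0830 by limma), which did not pass. Without day 0 replicate 2 it was 1.67 and called (adjusted p 0.032), and without day 1 replicate 2, which enters only through the shared spread, the adjusted p was 0.0446. At equal depth the difference was 0.36 (adjusted p 0.807). Of 11 tested tiles 1 was called between day 0 and day 2, a share near the 8.01% of all tested tiles, and it lay within the gene, at chr17:87640001-87642000. It held 154, 147 and 188 reads at day 0, 55 and 156 at day 1, 239, 196 and 232 at day 2, and 869, 284 and 533 in DNMT_WT. In log2 RPKM this was 2.15 ± 0.36 (SD, n = 3), 2.92 ± 0.28 (SD, n = 2), 3.37 ± 0.11 (SD, n = 3) and 4.44 ± 0.15 (SD, n = 3). The day 2 libraries lay above all day 0 libraries, and the DNMT_WT libraries above all others. Day 2 exceeded day 0 by 1.22 (SE 0.14, adjusted p 2.71e-12 by limma), and DNMT_WT exceeded TET_WT by 1.07 (SE 0.14, adjusted p 2.21e-09). Both calls were lost without the variance trend (adjusted p 0.0974 and 0.221) and at equal depth (0.0522 and 0.111). It was the only tile of Epcam called between the lines, where 1% of all tested tiles were called higher. Day 1 exceeded day 0 in this tile by 0.77 (SE 0.16, adjusted p 0.00212 by limma), where 1.01% of all tested tiles were called. That call was lost at equal depth, after centring, without the variance trend and without day 1 replicate 2. The tile from 87636001, just inside the start, had the largest difference between the lines, 1.88, and was not called (adjusted p 0.126). Part 1 of the gene by coordinate stood at −1.06 ± 0.30 in TET_WT and 0.29 ± 0.44 in DNMT_WT (SD, n = 3 each), without overlap (exact permutation test, two-sided, p = 0.1). The tile from 87650001, over the end of the gene, was lower at day 2 than at day 1 by 0.57 (SE 0.18, adjusted p 0.0493 by limma), a call lost at equal depth and without the variance trend.

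Over the whole of Epcam, gene values were 0.67, 1.05 and 0.83 at day 0, 1.28 and 1.43 at day 1, 0.95, 1.19 and 1.11 at day 2, and 1.65, 1.55 and 1.51 in DNMT_WT. Day 1 was thus the highest of the TET_WT groups. Day 1 minus day 0 was 0.50 (SE 0.12, adjusted p 0.134 by limma), and 0.60 with an adjusted p of 0.0294 without day 0 replicate 2. That fit called 279 of 20717 genes in this comparison. Day 2 minus day 0 was 0.24 (SE 0.11, adjusted p 0.172), and 0.33 with an adjusted p of 0.0225 without that library, where 31.6% of genes were called. Between the lines, 14.9% of all genes were called higher in DNMT_WT and 48.3% had groups that did not overlap. For Epcam, DNMT_WT exceeded TET_WT by 0.49 (SE 0.11, adjusted p 0.00892 by limma), and the groups did not overlap. Centring each library on its median raised this difference to 0.70 and the adjusted p to 0.061. That centring moved the median of all genes between the lines from 0.10 to 0.31.

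Comparing the genes within a library removes the scaling of that library. Cdh1 minus Cdh2 was 1.05 ± 0.60 at day 0, 2.60 ± 0.11 at day 2 and 3.33 ± 0.10 in DNMT_WT (SD, n = 3 each). Its day 2 minus day 0 difference was 1.55, and 1.88 without day 0 replicate 2. Cdh1 minus Cdh3 was −1.98 ± 0.11 at day 0 and −0.69 ± 0.03 at day 2. Cdh1 minus Epcam went from −0.86 ± 0.19 to 0.15 ± 0.07. These 3 pairs all contain Cdh1. Cdh3 minus Epcam, without Cdh1, went from 1.12 ± 0.08 to 0.84 ± 0.10. In these 4 of the 6 pairs of genes the day 0 and day 2 libraries did not overlap. Each had an exact permutation p of 0.1 (two-sided, adjusted p 0.133 over 12 tests), and 3 against 3 libraries allow no smaller p. Single genes did not overlap in 31.6% of all genes, and the share over all pairs of genes was not computed. Cdh2 minus Cdh3 overlapped between day 0 and day 2, at −3.03 ± 0.65 and −3.29 ± 0.10 (exact permutation p = 0.5).

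Other genes of cell adhesion and its control were read from lists in the same fit. At day 2 minus day 0, 18 of 33 epithelial factors and markers were called higher, with a median difference of 0.45 against 0.09 over all genes and 15.3% of all genes called higher. Elf3, an epithelial transcription factor, went from −1.04 ± 0.39 to 1.74 ± 0.15 (SD, n = 3 each), and Grhl3, a factor of surface epithelia, from 0.49 ± 0.16 to 1.91 ± 0.03. Of 19 other cadherins 3 were called higher and 1 lower (2.51% of all genes), with a median of −0.01. Cdh22 rose by 0.87 (SE 0.12), Cdh4 by 0.58 (SE 0.10), and Cdh13, the cadherin anchored by lipid without a cytoplasmic tail, fell by 0.35 (SE 0.11).

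Counts in the next lists were near the 15.3% of all genes called higher. Of 13 catenins and junction partners 3 were called higher. Jup, or plakoglobin, rose by 1.13 (SE 0.14) and Plekha7, a protein of the zonula adherens, by 0.78 (SE 0.09). Of 10 factors that repress Cdh1 or drive epithelial to mesenchymal transition 2 were called higher, Snai1, a repressor of Cdh1, by 1.53 (SE 0.22) and Foxc2 by 0.56 (SE 0.14), with a list median of 0.16. Of 11 mesenchymal markers 2 rose, Sparc by 0.76 (SE 0.17) and Mmp14, a membrane protease, by 0.60 (SE 0.13), with a median of 0.18.

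Marker lists of cell types gave 5hmC at the genes, not expression, and their counts stand against 15.3% of all genes called higher. All 7 naive ES cell genes were called higher at day 2, with a median difference of 1.56, among them Tbx3 by 3.36 and Esrrb by 1.45. Of 6 EpiLC genes 3 were called higher (median 0.58), with Foxd3 at 1.54 and Otx2 at 0.69. Fibroblast genes had 1 of 8 called higher (Thy1, 0.54), trophectoderm 2 of 4 (Eomes, 1.33, and Krt7, 0.53) and primitive endoderm 2 of 5 (Sox7, 0.79, and Gata4, 0.37). The part of other cell types in the differences of the 4 genes was not tested.

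The genes whose values followed each member most closely over the 11 libraries were found by Pearson's r, given as a description over libraries that share groups. For Cdh1 they were Zfp710 (r = 0.994), Brd1 (0.993) and Hspb8 (0.993). Those for Cdh2 were Tmem200a (r = 0.988), Pcsk2 (0.986) and Lyst (0.986), and those for Cdh3 were Padi2 (r = 0.982), Myo1c (0.979) and Scarb1 (0.979). Epcam was followed less closely, by Cela3b (r = 0.956), 1700018B08Rik (0.956) and Rhcg (0.949). Between members, r was −0.87 for Cdh2 and Cdh3, −0.76 for Cdh1 and Cdh2 and −0.65 for Cdh2 and Epcam. It was 0.55 for the neighbours Cdh1 and Cdh3, 0.59 for Cdh1 and Epcam and 0.64 for Cdh3 and Epcam.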

How the data were processed

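HMCP-seq captures 5hmC-bearing fragments of sonicated genomic DNA. The authors deposited log2 RPKM per 2 kb tile. Trim Galore 0.6.5, cutadapt 2.3, Bowtie2 2.4.1 and GRCm38 are named, per the submitters' processing notes; the tool that counted reads is not given in the sources used here. Whole reads were recovered from the values (all tiles of up to 200 reads came out within 0.01 of a whole read, an empty tile holding 0.9 reads).

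Autosomal and X tiles were kept, less the lowest 10% and highest 0.1% by mean, which left 1183891. Gene spans came from a RefSeq gene table of GRCm38 that gives no strand, so positions go by coordinate, where the plan had named the direction of transcription. Protein-coding genes with at least 3 tested tiles (20717) were fitted with limma 3.58.1 in R 4.3.3 (lmFit, eBayes with variance trend), all 11 libraries in one fit, as were tiles. The fit of genes was tested on simulated reads summed per gene, and the fit of tiles was not tested in this way. Exact permutation tests used SciPy 1.17.1.

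The genes, lists and tests were chosen with earlier results of these data known. Named were the members; from each list the 2 called genes with the smallest p in each direction at day 2 minus day 0; the 3 genes most correlated with each member; and per gene the tiles at the start and of highest mean and up to 3 called tiles of largest difference in each direction. Tiles called at day 1 or between the lines were named after their values were seen. Alternatives were other scalings, filters, flanks, depths, fits and libraries left out.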

Additional observations from a re-analysis of the deposited data

How the results depend on the processing

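The rise of Cdh1 from day 0 to day 2 was called under each of the 22 alternatives run, with values from 1.21 to 1.28 when a library was left out. Deviations of same-numbered libraries from their group means correlated weakly (r from −0.29 to 0.30 over 15 pairs of libraries, 2 of them above 0.1). With so few libraries a group, this cannot show whether the numbers pair them. Replicate 2 was the shallowest library of each group. With the replicate block the Cdh1 difference was 1.25 (adjusted p 2.36e-05), and no gene call or tile count of the 4 genes at day 2 minus day 0 changed. The day 1 call of the Cdh1 tile from 106646001 was lost under it (adjusted p 0.0687). Values below are log2 differences of gene values; the cause of a change was not tested.

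With reads summed per gene (voom), Cdh1 day 2 minus day 1 was 0.25 and not called, Cdh1 between the lines 0.15 and called, Cdh2 −0.0741 (day 1 minus day 0), −0.43 (day 2 minus day 0, called) and −0.51 (between the lines, called), and Cdh3 0.12 (day 1 minus day 0) and −0.24 (day 2 minus day 1). With only the groups compared, the line differences of Cdh1 (0.22) and Cdh2 (−0.52) were called, and with the weaker tiles, those below the median signal, left out that of Cdh2 (−0.51). Cdh3 between the lines was not called without the variance trend (0.28), after median centring (0.50) or without flanks (0.25), nor Epcam after centring (0.70). Cdh3 day 2 minus day 0 was 0.0449 after centring. Cdh3 day 2 minus day 1 was −0.00588 without flanks, −0.0422 with 20 kb flanks and −0.0396 at equal depth. With 20 kb flanks Epcam was −0.12 (day 2 minus day 0) and −0.28 (day 2 minus day 1, called).

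Leaving out 1 library gave Cdh1 between the lines 0.19 to 0.25; Cdh2 −0.14 to 0.37 (day 1 minus day 0), −0.61 to −0.10 (day 2 minus day 0), −0.50 to −0.44 (day 2 minus day 1) and −0.55 to −0.48 (between the lines); Cdh3 −0.0913 to 0.0181 (day 2 minus day 0) and 0.26 to 0.30 (between the lines); and Epcam 0.41 to 0.60 (day 1 minus day 0) and 0.15 to 0.33 (day 2 minus day 0).

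Tiles called higher and lower at day 2 minus day 0 numbered, without the variance trend, 9 and 0 in Cdh1, 0 lower in Cdh2, 0 and 0 in Cdh3 and 0 higher in Epcam. At equal depth they numbered 11 and 0 in Cdh1, 0 lower in Cdh2, 1 and 1 in Cdh3 and 0 higher in Epcam. After centring, 0 were lower in Cdh1, 2 lower in Cdh2, and 3 higher and 0 lower in Cdh3, and with no tile filter 2 were higher in Cdh2. Leaving out 1 library gave 16 to 20 higher and 0 to 2 lower in Cdh1, 1 to 2 and 3 to 6 in Cdh2, 4 to 5 and 1 to 4 in Cdh3, and 1 to 2 higher in Epcam. Of 544 recomputed differences of named tiles, 425 stayed on their side of the threshold, 117 lost a call and 2 gained one, and none turned its direction. Depth limits single tiles: at day 1 replicate 2 the 22 tiles of the Cdh1 stretch held 98 reads in all.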
